A study of Mus musculus with 10 samples.

Results

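The genes described here are the 7 mouse genes Cd74, H2-Aa, H2-Ab1, H2-Eb1, H2-DMa, H2-DMb1 and Ciita, which encode the MHC class II antigen presentation machinery. They were chosen by name out of the 31053 genes of a single-cell RNA sequencing count matrix, and all 7 were present in it. Cd74 and the chain genes were abundant in border-associated macrophages, dendritic cells and B cells, scarce in homeostatic microglia and intermediate in disease-associated microglia. The DM genes H2-DMa and H2-DMb1 were counted at similar mean levels in every microglial state. In microglia of 9-month APP/PS1 brains the levels of Cd74 and of the chains lay above those of non-diseased brains of the same age, and DAM held most of the Cd74 molecules there.

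MHC class II molecules present peptides from internalised protein to CD4+ T cells. In C57BL/6 mice they are I-A heterodimers of an α chain (H2-Aa) and a β chain (H2-Ab1), whereas the β chain H2-Eb1 has no partner because this strain does not make the I-E α chain. Cd74, the invariant chain, occupies the groove of newly made molecules on their way to the endosome, the DM heterodimer (H2-DMa and H2-DMb1) exchanges the remaining fragment for a peptide, and Ciita is the transcriptional coactivator on which class II transcription depends. In the healthy brain class II is known mainly from macrophages and dendritic cells of the meninges, choroid plexus and perivascular space, and in amyloid models also from microglia near plaques.

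The question behind the samples was whether the Nlrp3 inflammasome alters the microglial response to amyloid. CD45+ DAPI- cells were sorted from whole brains of C57BL/6 mice and sequenced with the 10x 3' v3 kit, and each combination of genotype and age gave a single library, made by pooling the brains of 3 littermates (2 male, 1 female). WT and NLRP3.KO libraries exist at 3, 6 and 9 months, and APP/PS1 and APP/PS1 NLRP3.KO libraries at 3 and 9 months, which gives 10 libraries. APP/PS1 mice carry transgenes for Swedish mutant amyloid precursor protein and mutant presenilin-1 that are expressed in neurons of the central nervous system, and the Nlrp3 deletion is full body, so that every CD45+ cell lacks the gene and not microglia alone. Brains were dissociated in the cold with actinomycin D, a transcription inhibitor. The annotation lists 3 batches with 1 age each, so that an effect of age and an effect of batch cannot be told apart. Every pair of genotypes compared lies inside a batch. Since 1 library is a pool, p-values rest on the spread between pairs of libraries and not on the spread between mice.

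Except for Ciita on chromosome 16 (chr16:10480059-10528418, plus strand, GRCm38), the members whose position is given lie in the class II region of chromosome 17. From its centromeric end these are H2-DMa (chr17:34119541-34139101, plus strand), H2-DMb1 (chr17:34153072-34160230, plus strand), H2-Ab1 (chr17:34257689-34269419, plus strand), H2-Aa (chr17:34282744-34287823, minus strand) and H2-Eb1 (chr17:34305867-34316674, plus strand). Class II promoters are known for a conserved upstream module in which an X box binds the RFX complex, an X2 box binds CREB and a Y box binds NF-Y, and Ciita docks on the assembled proteins. The stretches of H2-Aa and H2-Eb1 from 100 to 31 bases before the annotated start are shown because they carry recognisable parts of that module. They are from RefSeq on GRCm38.p6, contain no exon bases, lie at chr17:34287854-34287923 (minus strand) and chr17:34305767-34305836 (plus strand), and capitals mark the letter runs described next.
H2-Aa: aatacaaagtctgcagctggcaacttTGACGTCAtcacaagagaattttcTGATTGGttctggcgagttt
H2-Eb1: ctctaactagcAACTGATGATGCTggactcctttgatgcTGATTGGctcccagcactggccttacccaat
The run TGATTGG, the core of the Y box, was searched on both strands in windows from 250 bases before to 50 bases after each gene's start. It was found 50 bases before the start of H2-Aa, 61 before that of H2-Eb1 and 63 before that of H2-DMb1, which are 3 of the 4 members with a window, and in 7.82% of all 32851 windows. The run AACTGATGATGCT, 89 and 92 bases before the starts of H2-Eb1 and H2-DMb1, is the longest that their 250 bases before the start share. It was taken from these same stretches, so its presence in both was fixed beforehand. Of the windows 0.00913% (3 windows) held it, and these include the windows it was taken from. H2-Aa held TGACGTCA, the palindromic cyclic AMP response element, 74 bases before its start, as did 1.79% of the windows. The runs do not overlap each other, and a match describes letters and not a bound factor.

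Of the 45472 cells used, 40547 were microglia in the authors' annotation and 4925 were other CD45+ cells. A library held 1755 to 8208 microglia with a median of 3978 to 5985 unique molecular identifiers per cell (UMIs, each standing for 1 captured transcript), and 246 of 45225 distinct cell barcodes occurred in more than 1 library. Nlrp3 was counted 390 to 1425 times in the microglia of each library without the deletion and 0 times in each of the 5 NLRP3.KO and APP/PS1 NLRP3.KO libraries. Of the microglia, 40433 had a UMI of the microglial marker P2ry12. T cells of the WT library at 6 months and the 18 NK cells of the NLRP3.KO library at 9 months stood apart in class II, as given below with their values.

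Levels are given as CPM, the UMIs of a gene in every 1000000 UMIs of the summed cells. The kit counts the 3' end of each molecule once, so CPM was not divided by gene length. Means over libraries are given with the SD for libraries holding at least 20 cells of a type. The authors named microglia as homeostatic (HM), transitioning toward disease-associated (TM), interferon-response (IRM), immediate early gene (IEG), disease-associated (DAM) and proliferating (PM), and separated border-associated macrophages (BAM) from a Lyve1-positive class of them (BAM Lyve1). These names came from clustering that could use the genes described here, so levels across cell types are a description with no test.

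Cd74 was the most abundant member in the antigen-presenting cells. It stood at 26105 ± 2585 CPM in cDC2, the conventional dendritic cells that prime CD4+ T cells (n = 3), at 24293 ± 2203 CPM in BAM (n = 10), at 6603 ± 1406 CPM in B cells (n = 8) and at 2419 ± 983 CPM in BAM Lyve1 (n = 9). Among microglia it was highest in DAM at 945 ± 574 CPM and lowest in HM at 21.2 ± 3.02 CPM (n = 10 each). PM (233 ± 342 CPM), IRM (216 ± 237 CPM), IEG (148 ± 63.4 CPM) and TM (90.2 ± 24.5 CPM) lay between them. The level of PM rested on few cells, since 1 cell each of 3 libraries held 409, 389 and 164 of its 1210 Cd74 UMIs, and its median over libraries (72.5 CPM) was below those of IEG (137 CPM) and TM (96.5 CPM). Ordered by the mean, the libraries of cDC2 and BAM overlapped, those of BAM, B cells and BAM Lyve1 were separate, and from BAM Lyve1 down to TM each cell type overlapped the next. All libraries of TM (45.4 to 128 CPM) lay above those of HM (17.7 to 26.2 CPM).

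The 3 chain genes had a similar order at lower levels. H2-Ab1 stood at 11372 ± 568 CPM in cDC2 and 11254 ± 1291 CPM in BAM, at 1428 ± 307 CPM in B cells, at 357 ± 280 CPM in DAM and at 12.96 ± 2.07 CPM in HM. H2-Aa stood at 9951 ± 1090 CPM in BAM, 217 ± 161 CPM in DAM and 2.63 ± 0.894 CPM in HM. H2-Eb1 stood at 11018 ± 1091 CPM in BAM, 161 ± 139 CPM in DAM and 2.68 ± 0.883 CPM in HM. In BAM the orphan β chain H2-Eb1 and the I-A β chain H2-Ab1 differed by less than their SD.

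The DM genes had another profile. H2-DMa stood at 1205 ± 51.5 CPM in cDC2, at 903 ± 109 CPM in BAM and at 266 ± 16.5 CPM in HM, and its means in the other microglial states lay between 266 CPM in PM and 340 CPM in TM. H2-DMb1 stood at 1063 ± 20.9 CPM in cDC2, at 885 ± 101 CPM in BAM and at 170 ± 12.6 CPM in HM, with means of 163 to 184 CPM in the other states. In the order of both genes each microglial state overlapped the next state. For H2-DMa all libraries of TM (310 to 386 CPM) still lay above those of HM (240 to 299.8 CPM). In HM, H2-DMa had 20.9 UMIs for each UMI of H2-Ab1, against 0.812 in DAM and 0.0803 in BAM. B cells had 3.30 UMIs of H2-DMa for each UMI of H2-DMb1, against 1.59 in HM.

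Ciita, the coactivator, was the scarcest member in cDC2, BAM, BAM Lyve1 and every microglial state, whereas in B cells H2-DMb1 was lower (63.2 ± 19.1 CPM). It stood at 384 ± 35.9 CPM in cDC2, 217 ± 33.2 CPM in BAM and 91.9 ± 26.5 CPM in B cells, and the libraries of these 3 types did not overlap. Those of B cells overlapped BAM Lyve1 (25.2 ± 11.5 CPM) and, among the types with at least 3 libraries of 20 cells, each later one overlapped the next. In all 40547 microglia together 101 UMIs of Ciita were counted, which is 0.520 CPM. Of these, 37 lay in DAM and 19 of those 37 in the NLRP3.KO library at 3 months. In 4 of the 10 libraries DAM had 0 UMIs of Ciita, which allows a level of up to 4.94 to 13.2 CPM (3 counts), so that a level of a few CPM was not detectable at this depth.

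**Figure D1:**
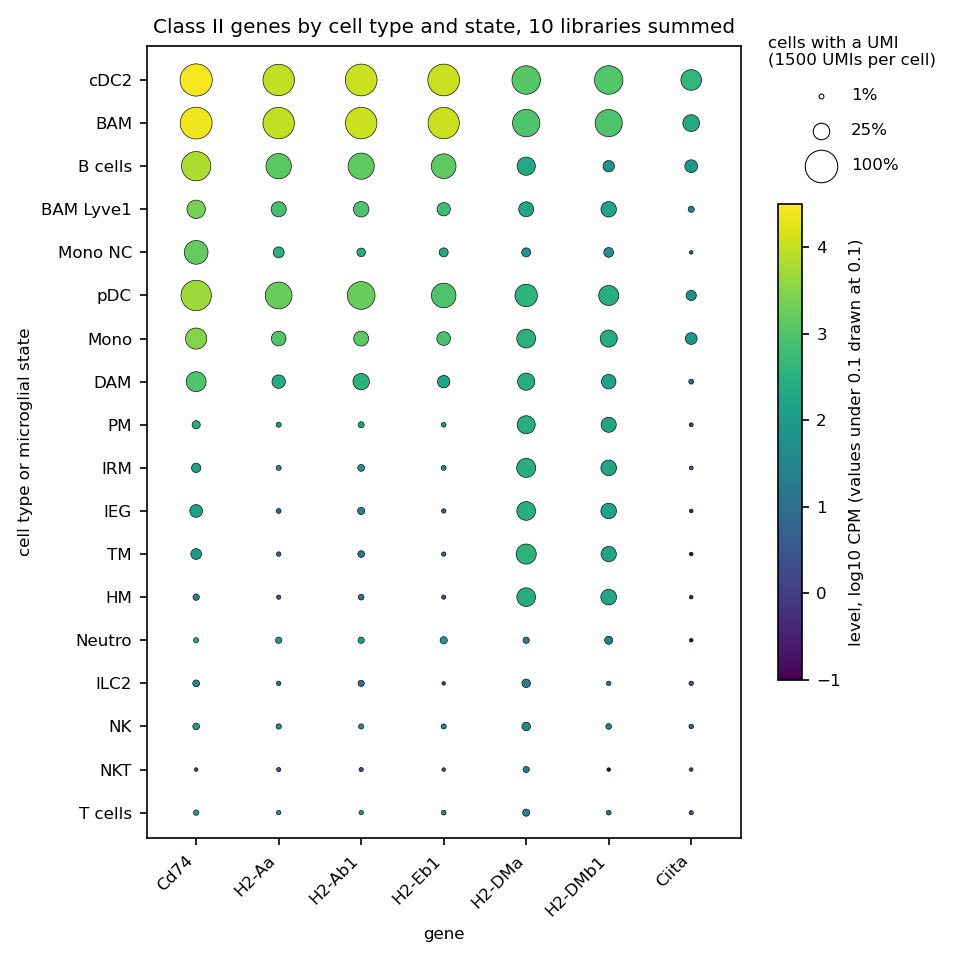
Dot plot of the 7 genes in each annotated cell type and microglial state, with the 10 libraries summed; colour is log10 CPM and dot size is the percent of cells with a UMI after thinning to 1500 UMIs per cell. Cd74 and the chains are strong in BAM, cDC2 and B cells and nearly empty in HM, whereas H2-DMa and H2-DMb1 keep a middling dot in every microglial state.

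Free RNA in a droplet suspension gives UMIs in cells that do not make them, so the share of cells with a UMI was set against T and NK cells, which should lack class II, after thinning each cell to 1500 UMIs. Cd74 was found in 2.63% of HM (7.08% without thinning, median 4366 UMIs per cell), in 1.502% of T cells (4.44% without thinning, median 5810 UMIs) and in 3.10% of NK cells (median 5989 UMIs). The share of NK cells rested on 1 library, since 8 of their 17 positive cells came from APP/PS1 at 9 months and without it the share was 2.004%, so that the order of HM and NK cells turned. The part of free RNA in these shares was not tested. H2-Aa was found in 0.485% of HM, 0.563% of T cells and 1.46% of NK cells, and H2-Eb1 in 0.457% of HM, 0.939% of T cells and 1.28% of NK cells. The T cell shares likewise rested on WT at 6 months (7 of 9 cells with H2-Aa and 10 of 15 with H2-Eb1), and without that library they were 0.149% and 0.373%, below HM. H2-Ab1 in HM (1.91%) lay above T cells (0.563%, or 0.224% without that library) and NK cells (1.28%), and Ciita in all microglia (0.0666%) below T cells (0.438%). In DAM the shares were 36.7% for Cd74, 24.6% for H2-Ab1, 16.1% for H2-Aa and 13.5% for H2-Eb1. H2-DMa was found in 32.2% of HM against 3.69% of T cells and 5.84% of NK cells, and H2-DMb1 in 22.4% of HM against 0.939% and 1.82%. Cd74 in IEG (14.3%) and TM (9.73%) also exceeded both lymphocyte types.

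Across libraries, Cd74 in T cells lay between 2.23 and 50.9 CPM except in the WT library at 6 months, where it was 628 CPM and 3 cells held 64.9% of the UMIs. In the 18 NK cells of the NLRP3.KO library at 9 months Cd74 was 1532 CPM, H2-Aa 669 CPM and H2-Ab1 613 CPM, while 5.56% of these cells had a UMI of Cd74. Antigen-presenting cells (B cells, BAM and dendritic cells) made up 2.90% to 5.65% of the cells of a library and held 82.4% to 95.3% of its Cd74 UMIs, against 2.26% to 14.8% in microglia.

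The proportion of Cd74 to the chains differed between states. For each UMI of the 3 chains summed, Cd74 had 3.68 UMIs in IEG and 3.22 in TM, 1.31 in DAM, 1.15 in IRM, 1.09 in HM and 0.720 in PM, against 0.757 in BAM, 0.830 in cDC2 and 1.60 in B cells. The values of PM and IRM rested much on single cells. In IRM, 1 cell each of NLRP3.KO at 3, 6 and 9 months held 84, 163 and 425 of the 1836 Cd74 UMIs. The same cells held 156, 257 and 509 chain UMIs. After thinning, 92.7% of the Cd74-positive TM and 88.7% of the Cd74-positive IEG cells had no UMI of any chain, as had 95.1% of the Cd74-positive HM cells. In DAM this was 36.9% and in BAM 1.43%. All 3 chains were found together in 6.88% of DAM and 91.4% of BAM. A cell without a chain UMI at this depth may still make the chain. The partners H2-DMa and H2-DMb1 were found together in 7.50% of microglia, against 7.20% if they were drawn independently.

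Over 19 cell types and states, levels on the log2(CPM + 1) scale were correlated as a description, since the points share libraries and depth. Cd74 had a Pearson r of 0.97 with H2-Ab1, 0.96 with H2-Aa and 0.95 with H2-Eb1, but 0.69 with H2-DMa, 0.76 with H2-DMb1 and 0.79 with Ciita. H2-Ab1 and H2-Eb1 had an r of 0.99, and H2-DMa and H2-DMb1 an r of 0.90. Genes outside the 7 came closer to each DM gene than its partner, at up to 0.915 for H2-DMa and 0.923 for H2-DMb1. Of genes outside the 7, those closest to Cd74 were Myo5a (0.81), Ero1lb (0.80) and Pltp (0.80), those closest to H2-Ab1 were Pltp (0.82), Myo5a (0.79) and Irf4 (0.78), and those closest to Ciita were Kmo (0.85), Kctd14 (0.81) and Cd209a (0.79).

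Where the microglial UMIs lay was then counted by state. HM made up 78.8% of all microglia and held 73.6% of the H2-DMa UMIs, 32.3% of the H2-Ab1 UMIs and 20.7% of the Cd74 UMIs. DAM made up 2.22% and held 2.98% of the H2-DMa UMIs, 33.5% of the H2-Ab1, 38.7% of the H2-Eb1, 38.5% of the Cd74 and 47.9% of the H2-Aa UMIs. Under the full annotation DAM numbered 1416 in place of 901, or 3.49% of microglia, and held 5.25% of the H2-DMa, 39.2% of the H2-Ab1, 47.1% of the H2-Eb1, 45.7% of the Cd74 and 54.4% of the H2-Aa UMIs. The share of DAM among microglia was 0.431% in WT, 0.622% in NLRP3.KO, 0.778% in APP/PS1 and 1.01% in APP/PS1 NLRP3.KO at 3 months, and 1.57% in WT and 1.61% in NLRP3.KO at 6 months. At 9 months it was 2.34% in WT, 3.79% in NLRP3.KO, 11.7% in APP/PS1 and 11.5% in APP/PS1 NLRP3.KO. DAM then held 24.4% of the microglial Cd74 UMIs in WT, 41.1% in NLRP3.KO, 64.2% in APP/PS1 and 79.1% in APP/PS1 NLRP3.KO.

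**Figure D2:**
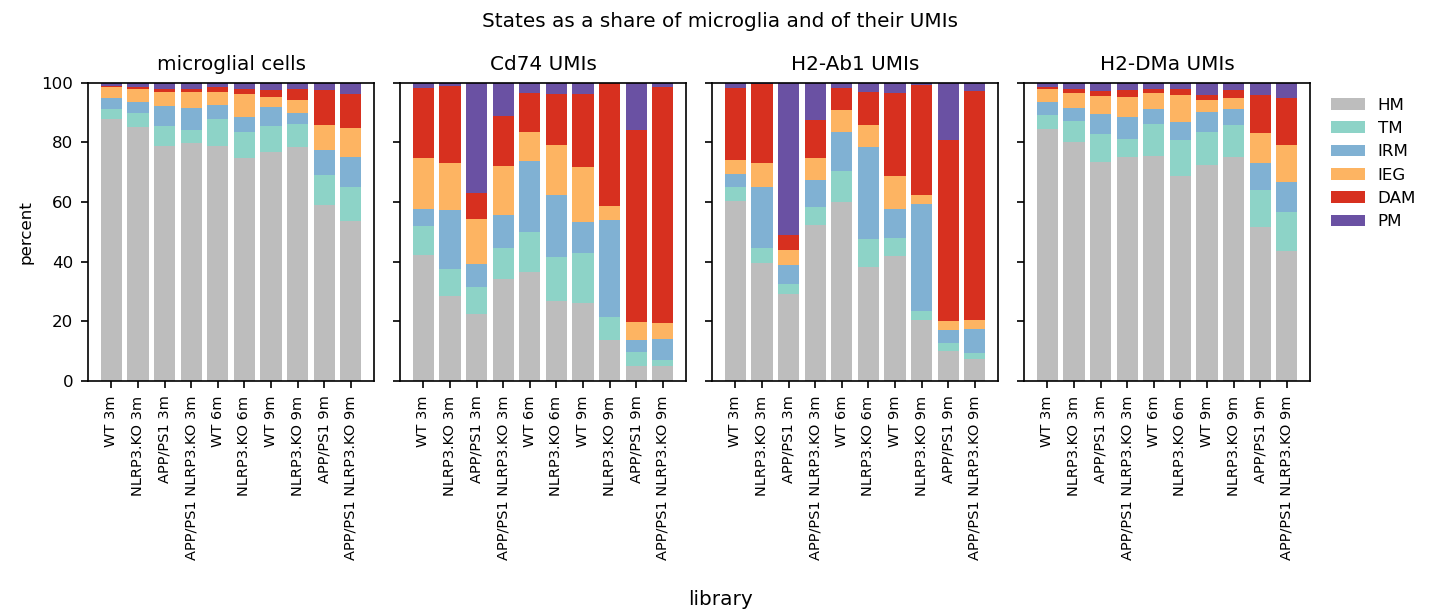
Stacked bars for each of the 10 libraries of the percent of microglia in each state and of the percent of microglial Cd74, H2-Ab1 and H2-DMa UMIs in each state. DAM (2.22% of all microglia) take a far wider band of the Cd74 and H2-Ab1 UMIs than of the cells, most of all at 9 months with APP/PS1, while H2-DMa is divided nearly as the cells are.

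Class II in microglia was concentrated in few cells. Of all microglia, 126 (0.311%) had at least 10 UMIs of the 3 chains summed, and they held 53.6% of the chain UMIs and 40.3% of the Cd74 UMIs. They numbered 36 in each of the APP/PS1 and APP/PS1 NLRP3.KO libraries at 9 months (1.66% and 2.05% of microglia) and 2 to 17 in each of the other 8 libraries (0.0572% to 0.297%). DAM accounted for 104 of them, IRM for 13, PM for 5, IEG for 3 and HM for 1. Without them, Cd74 in microglia lay between 32.9 and 64.4 CPM in those 8 libraries and was 96.2 CPM in APP/PS1 and 90.9 CPM in APP/PS1 NLRP3.KO at 9 months.

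Markers of other cells were counted in these 126 cells. DAM markers summed to 9784 CPM in them against 916 CPM in microglia with 0 chain UMIs. T cell and plasma cell markers and the B cell markers rare in microglia were at 0 UMIs. Monocyte markers summed to 198 CPM against 7.69 CPM, with at least 2 UMIs in 15 of the cells, and border macrophage markers to 57.3 against 7.49 CPM. Plasmacytoid dendritic cell markers, which were no part of the rule below, summed to 310 against 11.4 CPM, and of these Cox6a2 was at 15.1 CPM in all microglia, Ccr9 at 0.577 CPM and Klk1 at 0 UMIs. As 104 of the 126 cells were DAM, the sums over all DAM are given too, at 9772 CPM for DAM, 22.6 CPM for monocyte, 18.9 CPM for border macrophage and 192 CPM for plasmacytoid dendritic cell markers. A doublet score over 0.5 was given to 19.8% of them, against 7.63% of all microglia. At least 2 UMIs of another cell's markers (border macrophage, B, plasma, T, NK, monocyte, conventional or migratory dendritic cell or neutrophil lists, 30 genes) were found in 20 of the 126, and these 20 held 45.7% of the chain UMIs of the 126. The part of doublets in these values was not tested.

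Amyloid was compared in 4 pairs of libraries, each of which sets a library with APP/PS1 beside one without it at equal age and Nlrp3 genotype. At 3 months Cd74 in microglia was 38.7 CPM in WT and 60.7 CPM in APP/PS1, and 54.2 CPM in NLRP3.KO and 50.5 CPM in APP/PS1 NLRP3.KO. At 9 months it was 72.8 CPM in WT and 231 CPM in APP/PS1, and 109 CPM in NLRP3.KO and 245 CPM in APP/PS1 NLRP3.KO. Both 9-month APP/PS1 libraries lay above all other libraries, including the 6-month WT (40.3 CPM) and NLRP3.KO (55.7 CPM), and the 3-month libraries with and without APP/PS1 overlapped.

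H2-Ab1 was 17.2 CPM in WT, 33.3 CPM in APP/PS1, 23.2 CPM in NLRP3.KO and 24.0 CPM in APP/PS1 NLRP3.KO at 3 months, and 21.9, 86.4, 42.1 and 86.0 CPM in the same order at 9 months. H2-Aa was 5.91, 17.2, 8.73 and 7.18 CPM at 3 months and 5.47, 61.0, 23.0 and 57.3 CPM at 9 months. H2-Eb1 was 5.91, 15.3, 7.73 and 7.23 CPM at 3 months and 3.53, 44.6, 23.4 and 39.0 CPM at 9 months. Single cells held much of some of these sums. In APP/PS1 at 3 months 1 PM cell with another cell's markers held 767 of the 1260 chain UMIs (60.9%). Without the microglia of at least 10 chain UMIs H2-Aa was 3.62 CPM there and 3.71 CPM in WT. That cut is made on the chains themselves, so it lowers them in any library that has such cells. At 9 months 1 PM cell held 556 of 2118 chain UMIs (26.3%) in APP/PS1 and 1 IRM cell 509 of 1143 (44.5%) in NLRP3.KO. For each chain the 9-month APP/PS1 libraries were the highest of all 10, and among the non-diseased libraries NLRP3.KO at 9 months was the highest. H2-DMa lay between 244 and 304 CPM and H2-DMb1 between 151 and 181 CPM over all 10 libraries, with the genotypes mixed. Ciita had 11 UMIs in APP/PS1 and 6 in APP/PS1 NLRP3.KO at 9 months, 48 in NLRP3.KO at 3 months and 2 to 8 in each other library. A sum over all microglia of a library mixes the number of cells of a state with the RNA per cell of that state. For Cd74 the share of each state in the UMIs is divided below from the level within the state.

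**Figure D3:**
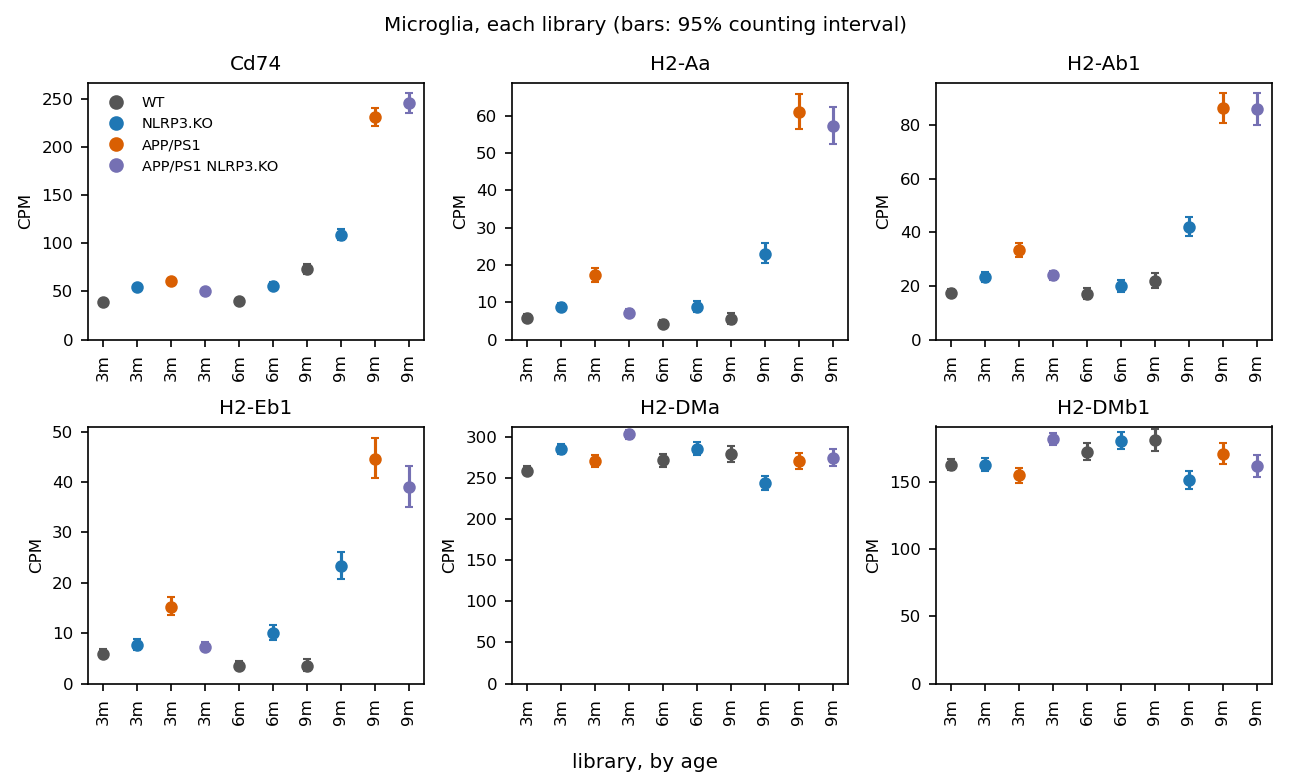
CPM of 6 members (all but Ciita) in the microglia of each of the 10 libraries, 1 panel per gene, ordered by age and coloured by genotype, with 95% exact Poisson intervals that cover counting error only. Cd74 and the 3 chains are highest in both APP/PS1 libraries at 9 months, and H2-DMa (244 to 304 CPM) and H2-DMb1 (151 to 181 CPM) are level.

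Fitted over both ages with edgeR's quasi-likelihood test, the log2 fold changes with APP/PS1 were 0.87 ± 0.26 (SE) for Cd74, 1.44 ± 0.47 for H2-Aa, 0.99 ± 0.26 for H2-Ab1 and 1.24 ± 0.46 for H2-Eb1, with Benjamini-Hochberg adjusted p-values of 0.549, 0.582, 0.490 and 0.647. For the DM genes they were 0.09 ± 0.06 (H2-DMa) and 0.04 ± 0.06 (H2-DMb1). The limits of a call were 0.05 for the adjusted p and 1 for the size of the log2 fold change, and 3 of 12007 genes (0.025%) were called. Of the 6 members tested 0 were called by edgeR and 0 by DESeq2, with 4 and 3 at an unadjusted p under 0.05, a limit that 876 of all genes passed in edgeR. Genes called numbered 9 without the 9-month WT pair and 0 without the 3-month or the 9-month NLRP3.KO pair. Ciita did not pass the filter on low counts in microglia.

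At 9 months alone, where 28 of 12007 genes (0.233%) were called, the edgeR log2 fold changes were 1.47 ± 0.19 for Cd74 (adjusted p = 0.0515), 2.24 ± 0.55 for H2-Aa, 1.53 ± 0.27 for H2-Ab1 and 1.89 ± 0.62 for H2-Eb1, against 0.12 ± 0.08 for H2-DMa and 0.06 ± 0.09 for H2-DMb1. The adjusted p of the chains lay between 0.129 and 0.330, so that 0 of 6 members were called by edgeR, with 4 of them and 1510 of all genes at an unadjusted p under 0.05. Cd74 lay close to the limit. With DESeq2 it rose by 1.47 (adjusted p = 1e-09), as the only member called, with DESeq2's size factors in edgeR by 1.47 (0.0466) and without the filter on low counts by 1.47 (0.0330). In microglia with a doublet score of at most 0.5, Cd74 rose by 1.87 (0.0324), H2-Ab1 by 1.86 (0.0428) and H2-Eb1 by 2.98 (0.0324). In microglia with under 2 UMIs of each list of other cells' markers, Cd74 rose by 1.23 (0.00963). The number of all genes called in these alternative fits is given at the end only for DESeq2 and for the fit without the filter. The member calls of the remaining ones are thus not set against it. In microglia without a UMI of a B or plasma cell marker, of which 11505 remained, the values were lower and none was called. They were 0.77 for Cd74 (0.106), 1.58 for H2-Aa, 0.83 for H2-Ab1 and 0.61 for H2-Eb1. That choice removed most microglia, since Ighm had a UMI in 65.6% and Cd79b in 18.1% of all microglia. With only the B and plasma cell markers rare in microglia used for it, 40362 microglia remained and 1 member was called. Without the 9-month WT pair the chains were at 1.40 for H2-Aa, 1.11 for H2-Ab1 and 0.82 for H2-Eb1, and without the 9-month NLRP3.KO pair at 3.51, 2.02 and 3.69.

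The call also turned on single pairs. Without the 9-month pair of WT and APP/PS1 the edgeR log2 fold change of Cd74 was 1.26 (adjusted p = 4.19e-07), with 3 members and 177 genes called, and without the 9-month pair of NLRP3.KO and APP/PS1 NLRP3.KO it was 1.70 (2.07e-09), with 4 members and 255 genes called. Each of these fits rests on 1 pair at 9 months that is assumed to vary like the 3-month pairs. Without either 3-month pair it was 1.48 (0.0865 and 0.0776), with 0 genes called.

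At 3 months 0 of 12007 genes (0%) were called by edgeR, with 222 at an unadjusted p under 0.05, and 3 by DESeq2. The log2 fold changes were 0.25 ± 0.19 for Cd74, 0.61 ± 0.55 for H2-Aa, 0.47 ± 0.26 for H2-Ab1 and 0.62 ± 0.60 for H2-Eb1, and 0 members were called or had an unadjusted p under 0.05 in edgeR. In microglia with under 2 UMIs of each list of other cells' markers they were -0.01 for Cd74, 0.14 for H2-Aa, 0.09 for H2-Ab1 and -0.20 for H2-Eb1. The difference between the ages itself was 1.23 ± 0.26 for Cd74 (unadjusted p = 0.00304, adjusted p = 0.808 in edgeR), 1.63 ± 0.78 for H2-Aa, 1.07 ± 0.37 for H2-Ab1 and 1.27 ± 0.87 for H2-Eb1. It was called for 0 of 12007 genes (0%) by edgeR, with 574 genes at an unadjusted p under 0.05, and for 6 genes by DESeq2, of which Cd74 was 1 (1.219, adjusted p = 0.0468). Without the 9-month WT pair edgeR called 60 genes and 1 member for this difference, and without the 9-month NLRP3.KO pair 214 genes and 4 members.

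**Figure D4:**
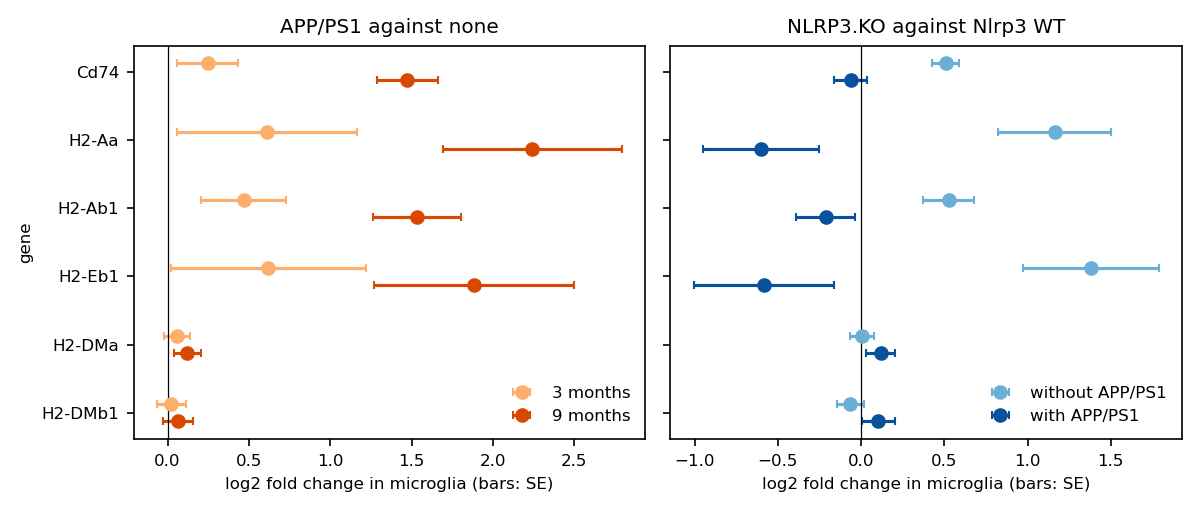
Log2 fold changes with SE from edgeR in microglia for the 6 members that passed the filter, for APP/PS1 at each age and for Nlrp3 deletion in each background. At 9 months Cd74 (1.47) and the chains (1.53 to 2.24) lie to the right of 0 and the DM genes (0.06 and 0.12) sit at it.

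The 9-month differences were divided between the states arithmetically, with each state weighted by its share of the microglial UMIs. A change in shares was taken at the mean level of both libraries, and a change in levels at their mean share. A share of the UMIs still holds both the number of cells and the UMIs per cell. Of the 158 CPM by which Cd74 in APP/PS1 exceeded WT, DAM supplied 131 CPM. The term for the shares of the states was 115 CPM and that for the levels within the states 43.3 CPM. Of the 137 CPM between APP/PS1 NLRP3.KO and NLRP3.KO, DAM supplied 149 CPM. Here the term for the shares was 167 CPM and that for the levels -30.4 CPM. Single cells enter the terms for the levels. The IRM cell named above held 425 of the 1404 Cd74 UMIs of NLRP3.KO at 9 months, or 32.9 CPM, and the PM cell of APP/PS1 at 9 months 389 of 2547, or 35.3 CPM. At 3 months DAM supplied -3.93 CPM of the 22.0 CPM between APP/PS1 and WT, where 1 PM cell held 21.4 CPM, and -5.36 CPM of the -3.72 CPM between APP/PS1 NLRP3.KO and NLRP3.KO.

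As a separate readout, the share of microglia with a UMI after thinning to 1500 UMIs was compared over the 4 amyloid pairs, where an exact sign-flip permutation test cannot reach a two-sided p of 0.05 (the smallest is 0.13). Cd74 was found in 6.88% of microglia with APP/PS1 and 4.41% without, a difference of 2.47 ± 2.10 percentage points (SD, n = 4 pairs) that was positive in 4 of 4 pairs (exact p = 0.13). By library the share was 3.30% in WT, 3.92% in APP/PS1, 3.93% in NLRP3.KO and 4.65% in APP/PS1 NLRP3.KO at 3 months, and 5.99%, 9.83%, 4.42% and 9.12% at 9 months. H2-Aa differed by 1.21 ± 1.28 points (4 of 4 pairs, exact p = 0.13), H2-Ab1 by 1.48 ± 1.52 points (3 of 4 pairs, exact p = 0.25) and H2-Eb1 by 0.759 ± 0.901 points (3 of 4 pairs, exact p = 0.375). H2-DMa (0.455 points), H2-DMb1 (0.867 points) and Ciita (-0.0216 points) were each higher in 2 of 4 pairs.

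Nlrp3 deletion was compared in 5 pairs of the same age and amyloid background. Over all pairs the edgeR log2 fold changes in microglia were 0.27 ± 0.11 for Cd74 (adjusted p = 0.899), 0.30 ± 0.38 for H2-Aa, 0.21 ± 0.17 for H2-Ab1, 0.42 ± 0.43 for H2-Eb1, 0.05 ± 0.06 for H2-DMa and 0.00 ± 0.06 for H2-DMb1. Of 12048 genes 2 (0.0166%) were called, and 0 of 6 members by edgeR or DESeq2, with 1 at an unadjusted p under 0.05 in each, a limit that 550 of all genes passed in edgeR. Without the non-diseased 9-month pair 8 genes were called. By library, Cd74 was higher in the Nlrp3-deleted member of the 3 non-diseased pairs (54.2 against 38.7, 55.7 against 40.3 and 109 against 72.8 CPM) and on either side in the 2 APP/PS1 pairs (50.5 against 60.7 and 245 against 231 CPM). The order of the non-diseased 9-month pair turned without microglia of at least 10 chain UMIs (WT at 64.4 CPM, NLRP3.KO at 41.5 CPM). Such cells, which are rich in Cd74 too, numbered 8 in NLRP3.KO and 4 in WT, so the cut takes more from NLRP3.KO. The share of Cd74-positive microglia in that pair, with no such cut, was 4.42% in NLRP3.KO and 5.99% in WT.

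Fitted by background, the log2 fold change of Cd74 was 0.51 ± 0.08 in non-diseased pairs (adjusted p = 0.892) and -0.06 ± 0.10 with APP/PS1, and the difference was -0.57 ± 0.13 (unadjusted p = 0.0033 in edgeR). The differences were -1.76 ± 0.49 for H2-Aa, -0.74 ± 0.23 for H2-Ab1 and -1.96 ± 0.59 for H2-Eb1, against 0.11 for H2-DMa and 0.17 for H2-DMb1. They were smaller in microglia with under 2 UMIs of each list of other cells' markers, at -0.67 for H2-Aa, -0.05 for H2-Ab1, -0.71 for H2-Eb1 and -0.18 for Cd74. The IRM cell that held 509 of the 1143 chain UMIs of NLRP3.KO at 9 months had a doublet score of 0.9997, and in microglia with a doublet score of at most 0.5 the differences were -1.07 for H2-Aa, -0.42 for H2-Ab1, -1.03 for H2-Eb1 and -0.20 for Cd74. After adjustment 0 of 12048 genes (0%) differed by edgeR, with 298 genes and 4 members at an unadjusted p under 0.05, and 1 gene that was no member by DESeq2. The share of Cd74-positive microglia differed by -0.0378 ± 1.05 points over the 5 pairs (exact permutation p = 0.9375, the smallest possible being 0.062), and H2-DMa had the largest difference of the 7 at 1.53 points (exact p = 0.25).

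Levels were then compared within each state. In DAM, Cd74 was 1839 CPM in WT and 1897 CPM in NLRP3.KO at 3 months (31 and 37 cells), 439 CPM in APP/PS1 and 491 CPM in APP/PS1 NLRP3.KO (24 and 83 cells). At 9 months it was 687 CPM in WT, 1098 CPM in NLRP3.KO, 986 CPM in APP/PS1 and 1231 CPM in APP/PS1 NLRP3.KO (55, 102, 253 and 202 cells), and at 6 months 297 CPM in WT and 489 CPM in NLRP3.KO. The few DAM of young non-diseased brains thus had the highest level, with H2-Ab1 at 839 and 843 CPM and H2-Eb1 at 379 and 402 CPM in the same libraries. In WT at 3 months 1 DAM cell with another cell's markers held 33.5% of the chain UMIs, and without cells of that kind Cd74 in DAM was 1349 CPM in WT and 1917 CPM in NLRP3.KO. The edgeR log2 fold change with APP/PS1 in DAM was -0.62 ± 0.30 for Cd74 (adjusted p = 0.2499), -0.74 ± 0.34 for H2-Ab1 (0.226) and -0.72 ± 0.41 for H2-Eb1, and of 5293 genes 143 (2.7%) were called and of 6 members 0. At an unadjusted p under 0.05 stood 1053 of the genes and 2 of the members. DESeq2 was not run within states. Without the 9-month WT pair Cd74 fell by 1.04 (0.0471) and H2-Ab1 was called as well, and without the 9-month NLRP3.KO pair Cd74 fell by 1.04 (0.00101), H2-Ab1 by 1.24 and H2-Eb1 by 1.35. Without the 3-month NLRP3.KO pair the values were smaller, at -0.20 for Cd74, -0.24 for H2-Ab1 and -0.05 for H2-Eb1, and 0 of these 3 were called. Without the 3-month WT pair they lay between these and the values over all pairs, and again 0 were called. The number of all genes called in DAM without a pair is not given. The member calls of these fits are thus not set against it.

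Between Nlrp3 genotypes in DAM, Cd74 differed by 0.39 ± 0.12 (adjusted p = 0.236) and H2-Eb1 by 0.69 ± 0.20 (0.214) on the log2 scale. Here 5 of 4608 genes (0.109%) were called and 0 of 6 members, while 374 of the genes and 5 of the 6 members had an unadjusted p under 0.05. Cd74 was higher in the Nlrp3-deleted library of all 5 pairs.

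In HM, Cd74 ranged only from 17.7 to 26.2 CPM over the 10 libraries. Its log2 fold change with APP/PS1 was 0.07 ± 0.11 and that of H2-Ab1 0.32 ± 0.10 (adjusted p = 0.903), and 0 of 11553 genes (0%) were called by edgeR, with 512 at an unadjusted p under 0.05, of which 1 was a member. Between Nlrp3 genotypes 4 of 11591 genes (0.0345%) were called in HM, and 0 members.

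**Figure D5:**
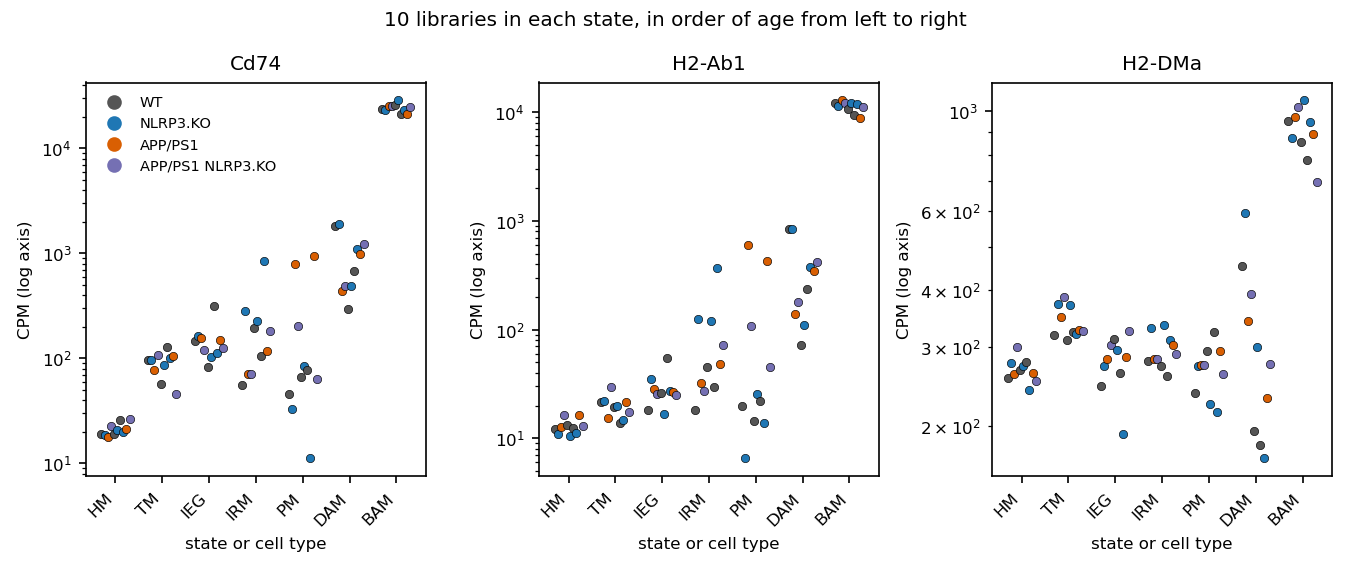
CPM on a log axis of Cd74, H2-Ab1 and H2-DMa in each microglial state and in BAM, with 1 point per library, ordered by age and coloured by genotype. HM points lie together at 17.7 to 26.2 CPM for Cd74, DAM points spread from 297 to 1897 CPM, and single PM and IRM libraries stand far above the rest.

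Members were called in PM and IRM. In PM, Cd74 was 796 CPM in APP/PS1 and 205 CPM in APP/PS1 NLRP3.KO at 3 months and 948 CPM in APP/PS1 at 9 months, against 11.1 to 84.6 CPM in the other 7 libraries. With APP/PS1, edgeR gave log2 fold changes of 3.48 ± 0.22 for Cd74 (adjusted p = 1.28e-07), 5.16 ± 0.42 for H2-Aa (3.41e-06) and 4.25 ± 0.27 for H2-Ab1 (1.28e-07), where 5 of 6952 genes (0.0719%) were called. These values came from single cells, since 1 cell held 767 of the 775 chain UMIs of PM in APP/PS1 at 3 months (99.0%), 1 cell 556 of 565 (98.4%) in APP/PS1 at 9 months and 1 cell 185 of 226 (81.9%) in APP/PS1 NLRP3.KO at 3 months. Each of these 3 cells also carried markers of another cell type. PM that had at least 2 UMIs of another cell's markers numbered 35 and held 90.1% of the chain UMIs of PM. Without them the log2 fold change of Cd74 was 0.31 ± 0.34 and Cd74 was not called. H2-Aa and H2-Ab1 did not pass the filter on low counts there, so their calls could not be tested again. Between Nlrp3 genotypes H2-Ab1 fell by 2.32 ± 0.30 in PM (adjusted p = 0.00108), with 4 of 6823 genes (0.0586%) called. It was not called without the 9-month APP/PS1 pair (-1.96, edgeR adjusted p = 0.134). With the cells carrying other markers left out, H2-Ab1 did not pass the filter in this comparison either and was not tested.

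In IRM, Cd74 was 856 CPM in NLRP3.KO at 9 months and 56.2 to 282 CPM in the other 9 libraries. H2-Eb1 fell by 2.83 ± 0.47 with APP/PS1 (adjusted p = 0.0372), where 2 of 8190 genes (0.0244%) were called. Between Nlrp3 genotypes H2-Eb1 rose by 3.11 ± 0.46 (0.00318) and H2-Aa by 2.53 ± 0.45 (0.0311), where 6 of 8040 genes (0.0746%) were called. Again 1 cell held 509 of the 523 chain UMIs of NLRP3.KO at 9 months (97.3%). That cell had a doublet score of 0.9997 and 15205 UMIs, but fewer than 2 UMIs of each marker list in the rule above. That rule did not cover plasmacytoid dendritic cells. In NLRP3.KO, 1 cell held 257 of 276 chain UMIs (93.1%) at 6 months and 1 cell 156 of 292 (53.4%) at 3 months, both with another cell's markers. Cells carrying such markers numbered 61 in IRM and held 40.8% of the chain UMIs. Without them H2-Aa and H2-Eb1 did not pass the filter on low counts in the fits that had called them. Their calls could therefore not be tested again, and no other member was called. The cell with 509 chain UMIs was not among those left out. The amyloid value of H2-Eb1 was not called without the 9-month NLRP3.KO pair (-1.87, edgeR adjusted p = 0.985). Its Nlrp3 value was not called without the 6-month pair (3.37, adjusted p = 0.0676), and that of H2-Aa not without the non-diseased pair of 3 months (2.35, 0.418), 6 months (2.54, 0.254) or 9 months (1.62, 0.0829).

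In TM and IEG no member was called. In TM 1 of 8339 genes (0.012%) was called with APP/PS1 and 4 of 8552 (0.0468%) with Nlrp3 deletion, and in IEG 2 of 8403 (0.0238%) and 4 of 8393 (0.0477%).

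No member was called in B cells, BAM or BAM Lyve1 with APP/PS1 or with Nlrp3 deletion. Dendritic cells were too few per library to be compared, and without the filter on low counts H2-Aa in T cells was called for Nlrp3 deletion, where 11 of 14306 genes (0.0769%) were called. H2-Aa in T cells was 280 CPM in WT at 6 months and at most 6.63 CPM in the other libraries without APP/PS1. BAM, where Cd74 ranged from 21260 to 28682 CPM over the libraries, had log2 fold changes of the 7 members between -0.05 and 0.13 with APP/PS1 (15 of 5085 genes, 0.295%, called) and between -0.06 and 0.11 with Nlrp3 deletion (4 of 5612 genes, 0.0713%). In BAM Lyve1 the fold changes with APP/PS1 were 0.51 ± 0.19 for H2-Aa, 0.52 ± 0.18 for H2-Ab1 and 0.61 ± 0.23 for H2-Eb1 (edgeR adjusted p from 0.946 to 0.992), with 2 of 3054 genes (0.0655%) called. With Nlrp3 deletion Cd74 in BAM Lyve1 differed by 0.52 ± 0.18 (edgeR adjusted p = 0.940), with 1 of 3607 genes (0.0277%) called. In B cells 1 of 3720 genes (0.0269%) was called with APP/PS1 and 2 of 5982 (0.0334%) with Nlrp3 deletion. In T cells, where H2-DMa alone was tested, 10 of 5268 genes (0.19%) were called with APP/PS1 and, with Nlrp3 deletion, 0 of 5405 (0%) by edgeR with 167 at an unadjusted p under 0.05. In NK cells 5 of 5030 genes (0.0994%) were called with Nlrp3 deletion. B cells and BAM Lyve1 had 3 amyloid pairs with at least 20 cells in both libraries, and T cells had all 4. For Nlrp3 deletion, B cells and NK cells had such pairs at 3 and 6 months only. At 9 months NLRP3.KO and APP/PS1 NLRP3.KO held 18 and 11 B cells and 18 and 10 NK cells. BAM Lyve1 lacked the non-diseased 9-month pair, with 13 cells in NLRP3.KO.

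The wider pathway list held 32 genes that were present, of which 29 were tested in microglia. Of these 0 were called by edgeR for amyloid, for amyloid at 9 months or for Nlrp3 deletion, with 4, 4 and 1 at an unadjusted p under 0.05, where 876 and 1510 of 12007 and 550 of 12048 genes passed that limit. Their median log2 fold changes were 0.02, 0.05 and 0.01, against 0.93, 1.504 and 0.24 for the 6 members. Among the transcription factors of class II genes at 9 months, the edgeR log2 fold change with APP/PS1 was -0.18 ± 0.07 for Spi1 (adjusted p = 0.404), 0.11 ± 0.09 for Irf1 and 0.12 ± 0.08 for Irf8. For the RFX subunits it was -0.16 ± 0.11 (Rfx5), 0.75 ± 0.45 (Rfxap) and -0.22 ± 0.14 (Rfxank). Within DAM, Irf1 fell by 1.42 ± 0.37 with APP/PS1 (adjusted p = 0.0190), where 143 of 5293 genes (2.7%) and 1 of the 21 list genes tested were called. It was the only call of the list in the comparisons run with edgeR.

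Levels of these partners in microglia were 653 CPM for Irf8, 425 CPM for Spi1, 39.9 CPM for Irf1, 37.1 CPM for Rfxap, 14.6 CPM for Rfx5 and 13.97 CPM for Rfxank, all above the 0.520 CPM of Ciita. Chosen after its values were seen, Ctss, the protease that trims the invariant chain, stood at 6036 CPM in microglia. H2-Oa, a subunit of the DM inhibitor and also chosen after its values were seen, stood at 92.8 CPM in DAM, 50.3 CPM in microglia as a whole and 11.4 CPM in BAM. Ifng, chosen likewise, stood at 79.7 CPM in NK cells and 31.7 CPM in T cells and was at 0 UMIs in the microglial states.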

How the data were processed

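Reads were processed by the authors with Cell Ranger against mm10, cells beyond 3 median absolute deviations were removed with Scater, and clusters were annotated after Seurat and harmony. The authors deposited raw UMI counts per gene and cell. They also deposited, per cell, the percent of mitochondrial UMIs and a doublet score given as a fraction between 0 and 1. Of the sample names in the annotation, 2 (6897 cells) matched no description and were not used.

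The members and lists were chosen with earlier results of these data known. Counts were summed per library over the microglia, a state or a cell type, with at least 20 cells per library and at least 3 pairs. After filterByExpr and TMM scaling, edgeR 4.0.16 (R 4.3.3) fitted quasi-likelihood models that held the pair as a block, and F test p-values were adjusted by Benjamini-Hochberg over all genes tested. Pairs share age, batch and the other genotype by design. The SE is the log2 fold change over the square root of F. A call needed an adjusted p under 0.05 and a log2 fold change larger than 1 in size. Shares of cells were computed after thinning to 1500 UMIs and compared over pairs by an exact sign-flip permutation test (two-sided). Intervals are 95% exact binomial or Poisson, and a count of 0 was set against 3 counts, both covering counting error only. Microglia held 9357431 to 35107144 UMIs per library and a median mitochondrial share of 2.35% to 3.67%.

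Named genes are the 7 members, pathway genes called in a comparison, the transcription factors Rfx5, Rfxap, Rfxank, Irf8, Spi1 and Irf1 (others of this rule are not reported here), and the 3 non-members closest to Cd74, H2-Ab1 and Ciita in Pearson correlation (mean CPM at least 10). Lymphocytes served as a background level. Alternatives were DESeq2 1.42.0, its size factors, no filter, the adjusted p alone, additive covariates without the pair block, HM only, a doublet score of at most 0.5, no UMI of B or plasma cell markers, other thinning, the full annotation and leaving out each pair. Leaving out cells with 2 UMIs of another cell's markers, and the B and plasma cell markers rare in microglia, were added after seeing the data. Markers found in over 5% of microglia were left out of the marker rule (30 of 33 used). The fits were tested on simulated data, where 98% to 100% of 200 genes given a log2 difference of 2 were called. These shares hold for the spread of the simulated counts and do not give the chance of a call for the members. With APP/PS1 at the oldest age, H2-Aa had a log2 fold change above 2 and was not called by edgeR. H2-Ea-ps and Ifi30 were not analysed here.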

Additional observations from a re-analysis of the deposited data

Results flagged for a closer look

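In 117 groups of 4 or 6 libraries (with or without APP/PS1), a single library stood apart from the rest by Dixon's gap ratio 20 times. Chance would give this in about 1 in 20 groups of normally distributed values. The groups share libraries and cells, since genes were counted in the same cells and states lie within microglia. The 20 flags are therefore not independent of each other. T cells of the WT library at 6 months were highest of the non-diseased libraries in Cd74 (628 CPM), H2-Aa (279.6 CPM), H2-Ab1 (280.6 CPM), H2-Eb1 (295 CPM), H2-DMa (71.9 CPM) and H2-DMb1 (41.8 CPM), with 3 cells holding 64.9% of the Cd74 UMIs.

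The NLRP3.KO library at 9 months was highest of the non-diseased libraries in H2-Aa (23.0 CPM), H2-Ab1 (42.1 CPM) and H2-Eb1 (23.4 CPM) in microglia, and in its IRM in Cd74 (856 CPM), H2-Aa (302 CPM), H2-Ab1 (369 CPM) and H2-Eb1 (315 CPM), where 1 cell held 97.3% of the chain UMIs. Ciita in the NLRP3.KO library at 3 months was 1.72 CPM in microglia (48 UMIs), 16.2 CPM in IRM (17 UMIs) and 93.1 CPM in DAM (19 UMIs), in each case the highest of the non-diseased libraries, and H2-DMb1 in its DAM was 461 CPM (94 UMIs).

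In the WT library at 9 months Cd74 was 26.1 CPM in HM and 313 CPM in IEG, again the highest of the non-diseased libraries. H2-DMa in microglia was 304 CPM in APP/PS1 NLRP3.KO at 3 months, the highest of the libraries with APP/PS1. The part of doublets, free RNA or chance in these values was not tested.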

How the results depend on the processing

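Directions and calls of the members were recomputed under each alternative. Genes called for amyloid (3) numbered 5 by the adjusted p alone, 14 with DESeq2, 5 without the filter on low counts and 0 in HM only, and for Nlrp3 deletion (2) they numbered 4 by the adjusted p alone, 6 with DESeq2, 4 with age and genotype as covariates in place of the pair block and 4 in HM only. The fit without the pair block changed no member's call. At 9 months (28 genes) DESeq2 called 47 and the fit without the filter 43, and members called (0) numbered 1 with DESeq2, its size factors, no filter, no B or plasma cell marker rare in microglia, or under 2 UMIs of other cells' markers, and 3 with a doublet score of at most 0.5. For the other fits in this list the number of all genes called is not given, so their member calls are not set against it. At 3 months (0) DESeq2 called 3 genes and microglia without a B or plasma cell marker 1. For the difference of the ages (0) these were 6 and 5, with 1 member by DESeq2, and for Nlrp3 by background (0) DESeq2 called 1. Member tests called within states (4 of 31 for amyloid, 3 of 30 for Nlrp3) numbered 9 and 8 of 42 each without the filter. With under 2 UMIs of other cells' markers they numbered 0 and 0 of 27 each. Of the member tests called, only that of Cd74 in PM for amyloid still passed the filter there, so the others could not be called. Calls over all genes and states (153 of 48730 tests, 0.314%, and 27 of 48007, 0.0562%) numbered 321 of 76334 (0.421%) and 77 of 84502 (0.0911%) without the filter. With under 2 UMIs they numbered 131 of 48271 (0.271%) and 23 of 47293 (0.0486%). In other cell types (0 for Nlrp3) 1 of 35 member tests was called without the filter. Over all genes these were 98 of 66649 tests (0.147%) against 12 of 25636 (0.0468%).

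Directions reversed for Nlrp3 deletion in H2-Aa (-0.0555) and H2-DMb1 (-0.0114) without B or plasma cell markers, a choice that left 11505 microglia because Ighm and Cd79b are detected in microglia, in H2-Ab1 (-0.0722) and H2-DMb1 (-0.0024) in HM only, and in H2-DMb1 (-0.0026) without the filter. They reversed in H2-DMa at 9 months (-0.0816), in the difference of the ages (-0.20) and in H2-Eb1 at 3 months (-0.0174) without those markers, and at 3 months in Cd74 (-0.0054) and H2-Eb1 (-0.20) with under 2 UMIs of other cells' markers. Unthinned shares differed by 0.000697 points for Ciita with amyloid and by -0.105 (H2-Ab1) and -0.697 (H2-DMa) points with Nlrp3 deletion. Under the full annotation Cd74 in TM was 57.2 CPM, H2-DMa in IEG 241.5 CPM and H2-DMb1 in IEG 143 CPM. The cause was not tested.

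Leaving out each pair gave 0 to 9 genes for amyloid, 2 to 8 for Nlrp3 deletion, 0 to 12 at 3 months, 0 to 255 at 9 months (0 to 4 members) and 0 to 214 for the difference of the ages (0 to 4 members), and 2 to 9 member tests for amyloid within states. Within states the number of all genes called without a pair is not given, so these member tests are not set against it. Members' log2 fold changes with a sign that turned ranged, for Nlrp3 deletion, from -0.0631 to 0.740 (H2-Aa), -0.00678 to 0.853 (H2-Eb1) and -0.0585 to 0.0663 (H2-DMb1). At 9 months they ranged from -0.0111 to 0.255 (H2-DMa) and -0.0492 to 0.177 (H2-DMb1), at 3 months from -0.123 to 0.629 (Cd74), -0.303 to 1.53 (H2-Aa), -0.116 to 1.35 (H2-Eb1) and -0.0920 to 0.137 (H2-DMb1), and for the difference of the ages from -0.0696 to 0.196 (H2-DMa) and -0.0743 to 0.157 (H2-DMb1). Differences in shares ranged, in percentage points, from -0.385 to 1.05 (H2-DMa) and -0.0667 to 0.0456 (Ciita) for amyloid, and from -0.230 to 0.345 (Cd74), -0.00143 to 0.180 (H2-Ab1), -1.13 to 0.597 (H2-DMb1) and -0.00273 to 0.0568 (Ciita) for Nlrp3 deletion.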
